A study of Homo sapiens with 10 samples.

Results

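Neurofilament and neuron-type transcripts were followed in HEK293FT cells, a line derived from human embryonic kidney that carries the SV40 large T antigen. The 10 genes were chosen by name, because HEK293 lines are known for neuron-like transcripts, and each had a row of its own among the 19301 named features of the expression table. They were the neurofilament subunits NEFL, NEFM, NEFH and INA, and the neuron-type genes ENO2, STMN2, GAP43, UCHL1, PCSK1N and RAB3A. The cells all carried lentivirally integrated Gaussia and Cypridina luciferase reporters, and all received a plasmid for dCas9-VP64, a catalytically dead Cas9 fused to a transcriptional activator. In 4 groups a second plasmid supplied a guide RNA against the Gaussia reporter, labelled INT, P4P6, TOP1 or sgRNA, and the fifth group, CasVP, received dCas9-VP64 with no guide. Per well of 125000 plated cells, all groups received 59 ng of dCas9-VP64 plasmid and 679.4 ng of carrier plasmid with 2.25 uL of lipofectamine. The guide groups also received 11.6 ng of guide plasmid, and no plasmid is listed in its place for CasVP. Each group had 2 libraries of poly(A)-selected RNA, taken 3 days after transient transfection. How the INT, P4P6 and TOP1 guides differ is not given in the labels, and TOP1 here names a guide rather than a gene. Whether a group's libraries came from separate cultures is not given either, and p-values measure the spread between these libraries, which may be technical. The table numbers the libraries of a group 0 and 1, and pairs of values below are given in that order.

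Neurofilaments are the intermediate filaments of neurons. The light chain NEFL forms the core with the medium chain NEFM, the heavy chain NEFH and alpha-internexin (INA), and their abundance sets the calibre of large axons. The other genes serve as neuronal markers for different parts of the cell: ENO2 is the neuronal form of the glycolytic enzyme enolase, UCHL1 a ubiquitin hydrolase abundant in brain, STMN2 and GAP43 are growth-cone proteins, RAB3A is a GTPase of synaptic vesicles, and PCSK1N encodes proSAAS, an inhibitor of a prohormone convertase. In most other cell types many neuronal genes are held down by the repressor REST and its corepressors.

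Levels were given as FPKM, fragments scaled by transcript length and library size, so that genes can be compared with each other per length. The depth of the libraries is not stated in the table, and an estimate from the steps of the lowest FPKM values put it between 19500000 and 28500000 fragments, lowest in P4P6 replicate 0 and highest in TOP1 replicate 0. Over all tested features, the SD of the log2 difference between the libraries of a group was 0.188 in P4P6 and 0.104 to 0.141 in the other groups. The Gaussia reporter, which the guides target, averaged 361 FPKM in INT, 176 in P4P6, 265 in TOP1 and 822 in sgRNA, against 23.3 in CasVP. The dCas9-VP64 transcript averaged 25.7 FPKM in INT, 18.6 in P4P6, 16.6 in TOP1 and 23.7 in sgRNA, against 14.7 in CasVP. Its part in the differences below was not tested. Markers of embryonic kidney were present, among them SALL1 at 11.7 FPKM and EYA1 at 8.93 FPKM. PAX2 was at 0.926 FPKM and LHX1 at 0.504 FPKM, and CDH6 did not reach 0.1 FPKM in any library. The 8 glial markers summed to 2.92 to 3.62 FPKM, the 5 fibroblast markers with a row to 2.00 to 3.44 FPKM, the 5 blood and endothelial markers with a row to 0.483 to 0.952 FPKM and the 5 hepatocyte markers to 0.0588 to 0.645 FPKM. COL1A2 was listed at 0 in all libraries.

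The 10 genes covered a wide range of levels. UCHL1 averaged 164 FPKM over the 10 libraries, above 97.9% of named features. NEFL averaged 19.8, INA 15.0, NEFM 14.1, ENO2 10.6 and PCSK1N 7.29 FPKM. RAB3A averaged 2.49 FPKM and GAP43 1.49 FPKM. STMN2 averaged 0.237 FPKM and NEFH 0.180 FPKM, above 32.8% and 31.4% of named features. A mean of at least 1 FPKM was required for testing, which 8 of the 10 genes passed and NEFH and STMN2 did not. At the estimated depth UCHL1 rested on about 3433 to 5524 fragments per library and NEFL on 1561 to 2753. RAB3A rested on 55 to 128 fragments, GAP43 on 24 to 93, NEFH on 8 to 24 and STMN2 on 3 to 27.

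**Figure D1:**
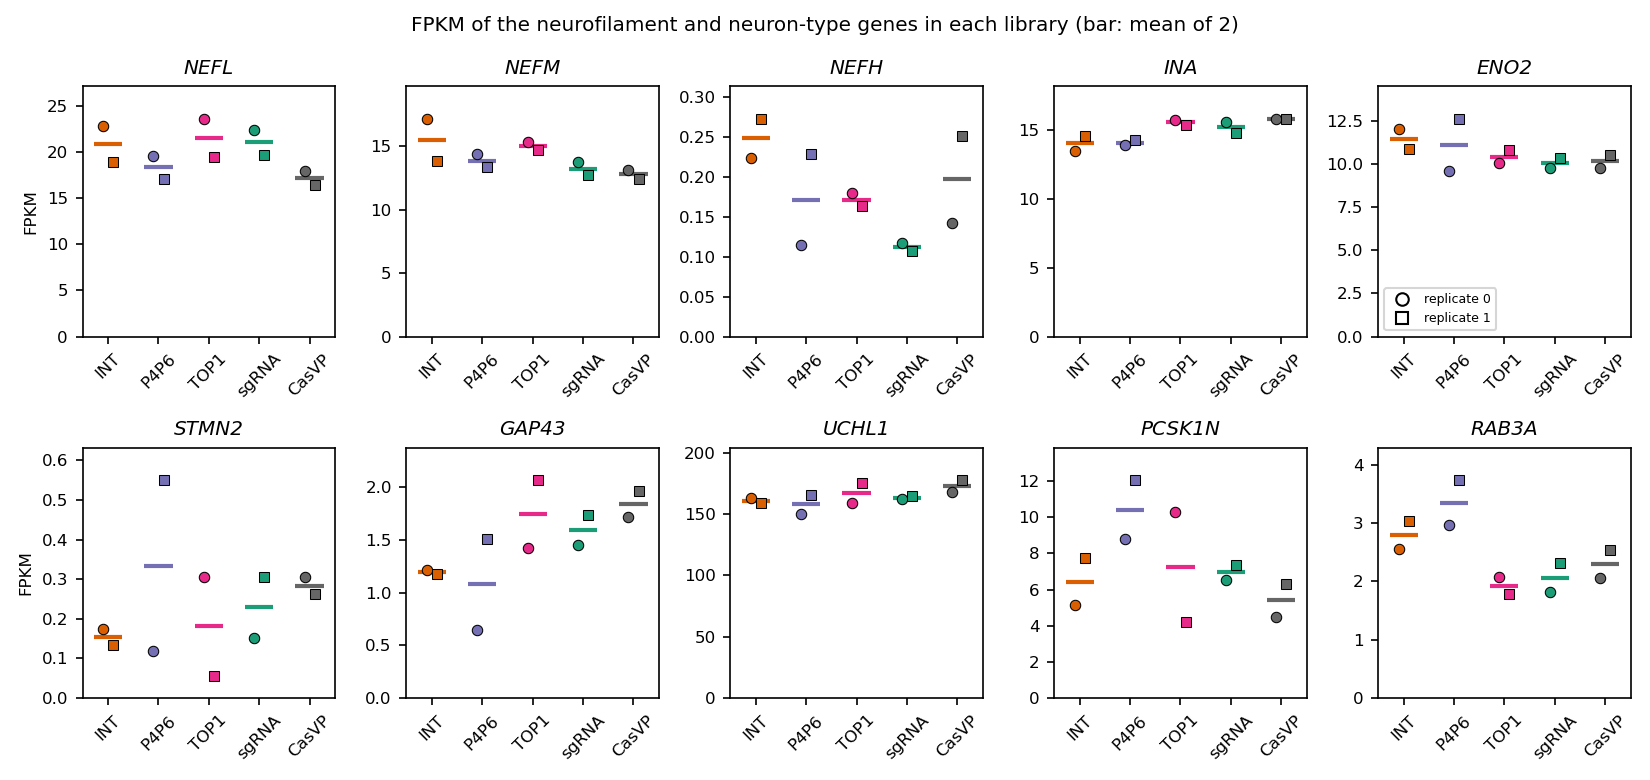
FPKM of each of the 10 genes (vertical axes, each from 0) in the 5 groups; circles are replicate 0, squares replicate 1 and bars the mean of 2. RAB3A and PCSK1N have their highest group means in P4P6, at 3.35 and 10.4 FPKM, and the INA values of CasVP, both 15.8 FPKM, lie above every library with a guide.

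The promoters of the 3 genes that varied most between libraries, PCSK1N, GAP43 and RAB3A, are shown because these genes carried the largest differences below. Each sequence runs from 250 bases before to 50 bases after the start of the gene in RefSeq on GRCh38.p14, on the strand of the gene. RefSeq promoters were matched for 6 of the 10 genes, those of INA, ENO2, GAP43, UCHL1, PCSK1N and RAB3A. Capitals mark CGTCA, the half-site of the cAMP response element, searched on both strands; it was picked after the sequences had been seen. RAB3A lies at chr19:18203993-18204292 on the minus strand, PCSK1N at chrX:48835561-48835860 on the minus strand and GAP43 at chr3:115623260-115623559 on the plus strand.
RAB3A: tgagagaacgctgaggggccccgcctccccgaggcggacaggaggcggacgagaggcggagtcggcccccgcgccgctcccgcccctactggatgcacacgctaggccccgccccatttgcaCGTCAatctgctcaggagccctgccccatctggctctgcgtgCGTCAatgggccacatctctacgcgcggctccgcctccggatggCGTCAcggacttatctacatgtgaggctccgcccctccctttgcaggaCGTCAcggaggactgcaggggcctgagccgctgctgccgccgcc
PCSK1N: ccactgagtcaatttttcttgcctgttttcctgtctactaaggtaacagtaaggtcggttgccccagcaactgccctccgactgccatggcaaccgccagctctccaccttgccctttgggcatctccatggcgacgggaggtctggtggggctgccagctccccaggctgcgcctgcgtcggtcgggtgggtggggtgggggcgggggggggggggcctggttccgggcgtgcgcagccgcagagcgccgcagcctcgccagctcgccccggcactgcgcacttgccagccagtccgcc
GAP43: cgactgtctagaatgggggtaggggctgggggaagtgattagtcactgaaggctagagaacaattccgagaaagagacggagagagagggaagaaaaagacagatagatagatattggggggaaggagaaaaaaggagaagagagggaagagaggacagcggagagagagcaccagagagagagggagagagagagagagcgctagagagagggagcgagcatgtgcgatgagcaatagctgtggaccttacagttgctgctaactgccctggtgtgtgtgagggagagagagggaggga
The RAB3A window held 4 matches to CGTCA, starting at positions -128, -86, -42 and 7 relative to the gene start, and the other 5 windows held 0. Of 35116 RefSeq promoters of this length, 24.6% had at least 1 match and 0.313% had 4 or more. The motif was picked after the sequences had been seen and the cut of 4 equals the RAB3A count, so these shares are no test. The promoters were not matched for GC content. The full element TGACGTCA was in none of the 6 windows and in 1.85% of all promoters. The GC box GGGCGG, searched on both strands, had 4 matches in INA, 3 in RAB3A, 2 in ENO2, 1 in UCHL1, 1 in PCSK1N and 0 in GAP43, against at least 1 in 45% of all promoters. GC content was 69.7% in the RAB3A window, 68.3% in that of PCSK1N and 52.7% in that of GAP43.

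Of the neurofilament subunits NEFL, NEFM and INA were present at similar levels in every library and NEFH was far lower. NEFL had 22.8 and 18.9 FPKM in INT, 19.6 and 17.1 in P4P6, 23.6 and 19.5 in TOP1 and 22.4 and 19.7 in sgRNA, against 17.9 and 16.5 in CasVP. In 7 of the 8 guide libraries NEFL was above both CasVP libraries, the exception being P4P6 replicate 1. The share of all tested features with such a count was not determined, here or for the genes below. By limma on log2(FPKM + 1), the scale of all log2 differences here, NEFL was 0.26 higher in INT than in CasVP (SE 0.11, Benjamini-Hochberg adjusted p = 0.56), 0.30 higher in TOP1 (SE 0.11, adjusted p = 0.512) and 0.28 higher in sgRNA (SE 0.11, adjusted p = 0.791), and none of these differences passed the threshold of 0.05. The NEFL estimate in INT was 0.13 without INT replicate 0 and 0.39 without INT replicate 1, and that in TOP1 was 0.17 without TOP1 replicate 0. An exact two-sided permutation test over the 45 possible pairs of libraries gave a difference of 0.23 between the guide libraries and CasVP with p = 0.111, where the smallest p possible is 0.0222. That test exchanged single libraries, although they came as 5 groups of 2, and it pooled the 4 guides. Its p-values, here and below, may therefore be too small. The NEFL group means ran TOP1, sgRNA, INT, P4P6 and CasVP, from 21.6 to 17.2 FPKM, and each pair of neighbours in that order overlapped.

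NEFM, the medium chain, had 17.2 and 13.8 FPKM in INT, 14.4 and 13.3 in P4P6, 15.3 and 14.7 in TOP1 and 13.7 and 12.7 in sgRNA, against 13.1 and 12.4 in CasVP. Again 7 of 8 guide libraries lay above both CasVP libraries, the exception here being sgRNA replicate 1. The largest NEFM difference was that of INT against CasVP, 0.25 (SE 0.09, limma, adjusted p = 0.524), which did not pass. It was 0.10 without INT replicate 0 and 0.40 without INT replicate 1. The order of means was INT, TOP1, P4P6, sgRNA and CasVP, and among neighbours only TOP1 and P4P6 did not overlap.

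INA, alpha-internexin, had 13.5 and 14.6 FPKM in INT, 13.9 and 14.3 in P4P6, 15.7 and 15.4 in TOP1 and 15.6 and 14.8 in sgRNA, against 15.8 and 15.8 in CasVP. It was the only one of the 8 tested genes whose guide libraries did not overlap with CasVP, all 8 being lower, and 4.82% of all tested features had non-overlapping values in that split. The difference was small: -0.10 over all guides, with an exact permutation p = 0.0889. The estimates against CasVP were -0.16 in INT (limma, adjusted p = 0.507) and -0.16 in P4P6 (limma, adjusted p = 0.152), and neither passed. CasVP stood above TOP1 without overlap in the order of means, and TOP1 and sgRNA stood above P4P6 and INT.

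NEFH, the heavy chain, had 0.223 and 0.272 FPKM in INT, 0.114 and 0.228 in P4P6, 0.179 and 0.164 in TOP1 and 0.117 and 0.107 in sgRNA, against 0.142 and 0.251 in CasVP. The exact permutation test gave a guide minus CasVP difference of -0.03 (p = 0.644), on values that rest on no more than 24 estimated fragments. No neighbouring pair in its order of means was separated.

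Summed over the 4 subunits, neurofilament RNA came to between 44.98 and 54.89 FPKM per library. NEFL made up 36.6% to 43.2% of that sum, NEFM 26.5% to 32.0%, INA 25.2% to 35.2% and NEFH 0.225% to 0.573%. The ratio of NEFL to NEFM averaged 1.35 in INT, 1.32 in P4P6, 1.44 in TOP1 and 1.59 in sgRNA, against 1.34 in CasVP. The ratio of NEFL to INA lay between 1.196 and 1.685 in the guide libraries, against 1.13 and 1.04 in CasVP, so that no guide library overlapped with CasVP. That ratio was computed after the levels had been seen and carries no test. It restates the NEFL and INA values above, and how many other gene pairs separate this way was not determined.

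Among the neuron-type genes, ENO2, neuronal enolase, had 12.0 and 10.9 FPKM in INT, 9.57 and 12.6 in P4P6, 10.0 and 10.8 in TOP1 and 9.74 and 10.3 in sgRNA, against 9.78 and 10.5 in CasVP. None of its 8 estimates reached 0.25 in size, and every pair of neighbours in its order of group means overlapped. UCHL1, the ubiquitin hydrolase, had 163 and 159 FPKM in INT, 150.3 and 166 in P4P6, 159 and 176 in TOP1 and 162 and 164 in sgRNA, against 168 and 178 in CasVP. In 7 of 8 guide libraries UCHL1 was below both CasVP libraries, with a difference of -0.09 (exact permutation p = 0.111). The highest UCHL1 value was 1.18 times the lowest, and only INA, at 1.17, had a narrower range.

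STMN2, a stathmin that regulates microtubules in growth cones, had 0.176 and 0.133 FPKM in INT, 0.119 and 0.550 in P4P6, 0.306 and 0.0562 in TOP1 and 0.152 and 0.307 in sgRNA, against 0.305 and 0.263 in CasVP. P4P6 replicate 1 had the highest STMN2 value, and P4P6 replicate 0 the second lowest, and the guide minus CasVP difference was -0.08 (exact permutation p = 0.622). GAP43, a growth-cone protein of axon extension, had 1.22 and 1.17 FPKM in INT, 0.647 and 1.51 in P4P6, 1.43 and 2.07 in TOP1 and 1.45 and 1.74 in sgRNA, against 1.72 and 1.97 in CasVP. INT and P4P6 were below CasVP without overlap, with estimates of -0.37 (SE 0.18, limma, adjusted p = 0.597) and -0.48 (SE 0.18, limma, adjusted p = 0.162). Neither passed, and the P4P6 estimate depended on 1 library: it was -0.18 without P4P6 replicate 0 and -0.78 without P4P6 replicate 1. Against sgRNA, GAP43 in P4P6 was at -0.35 (SE 0.18, limma, adjusted p = 0.219), and at -0.05 without P4P6 replicate 0 and -0.65 without P4P6 replicate 1. Over all guides the GAP43 difference from CasVP was -0.26 (SE 0.14, limma, adjusted p = 0.734; exact permutation p = 0.267). With a pseudocount of 0.1 the GAP43 estimates were -0.58 for INT, -0.82 for P4P6 and -0.42 for all guides against CasVP and -0.62 for P4P6 against sgRNA, and none passed by limma.

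PCSK1N, the proSAAS gene, varied most. It had 5.13 and 7.72 FPKM in INT, 8.80 and 12.0 in P4P6, 10.3 and 4.20 in TOP1 and 6.55 and 7.37 in sgRNA, against 4.49 and 6.32 in CasVP. Both P4P6 libraries were above all INT, sgRNA and CasVP libraries, whereas the TOP1 libraries held both the second-highest and the lowest value of the 10. PCSK1N in P4P6 was 1.93 times CasVP, an estimate of 0.83 on the log2 scale (SE 0.31, 95% interval 0.14 to 1.53), and it did not pass after adjustment (limma, adjusted p = 0.161). Against sgRNA the P4P6 estimate was 0.51 (SE 0.31, 95% interval -0.18 to 1.20, limma, adjusted p = 0.3), which did not pass either, and it was 0.30 without P4P6 replicate 1 and 0.29 after removal of the trend on GC content described below. The remaining PCSK1N estimates of 0.25 or more were 0.33 for sgRNA (SE 0.31, limma, adjusted p = 0.856), 0.27 for TOP1 (SE 0.31, limma, adjusted p = 0.795) and 0.41 for all guides (SE 0.25, limma, adjusted p = 0.747; exact permutation p = 0.244), all against CasVP. The TOP1 estimate was -0.29 without TOP1 replicate 0, 0.83 without TOP1 replicate 1, 0.07 without CasVP replicate 0 and 0.48 without CasVP replicate 1, and that for all guides was 0.27 without TOP1 replicate 0, 0.20 when CasVP replicate 0 was left out and 0.62 when CasVP replicate 1 was. Without CasVP replicate 0 the sgRNA estimate was 0.12, and without CasVP replicate 1 it was 0.53.

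RAB3A, the vesicle GTPase, had 2.56 and 3.04 FPKM in INT, 2.96 and 3.73 in P4P6, 2.07 and 1.79 in TOP1 and 1.81 and 2.32 in sgRNA, against 2.05 and 2.54 in CasVP. The P4P6 and INT libraries lay above all others, with a P4P6 mean of 3.35 ± 0.545 and an INT mean of 2.80 ± 0.340 against 2.06 ± 0.359 in sgRNA and 2.30 ± 0.340 FPKM in CasVP (SD, n = 2 each). RAB3A was higher in P4P6 than in sgRNA by 0.50 on the log2 scale, a ratio of 1.62 (SE 0.13, 95% interval 0.22 to 0.78, limma, adjusted p = 0.0353). That was the only call among the 8 tested genes in any of the 8 comparisons. In this comparison 1331 of 11574 features passed, which is 11.5%, 501 higher and 830 lower in P4P6, so 1 of 8 genes is close to the background share. RAB3A in P4P6 against CasVP was at 0.40 (SE 0.13, limma, adjusted p = 0.12) and in INT against sgRNA at 0.31 (SE 0.13, limma, adjusted p = 0.555), and neither passed. The INT estimate was 0.19 without sgRNA replicate 0. These comparisons share libraries, so their estimates are not independent.

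The RAB3A call rested on particular libraries and settings. Where a P4P6 or sgRNA library is left out, the spread comes from the other groups, and the lone library is assumed to vary like them. Leaving out P4P6 replicate 1 gave 0.38 (adjusted p = 0.143, limma), and leaving out P4P6 replicate 0 gave 0.63 (adjusted p = 0.0206, limma). Without sgRNA replicate 0 the adjusted p was 0.231 and without sgRNA replicate 1 it was 0.0912, by limma. Without either CasVP library, which enter only the estimate of the spread, it was 0.054 and 0.0543 by limma. It was 0.0733 with no filter on low values and 0.073 after quantile normalization.

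**Figure D2:**
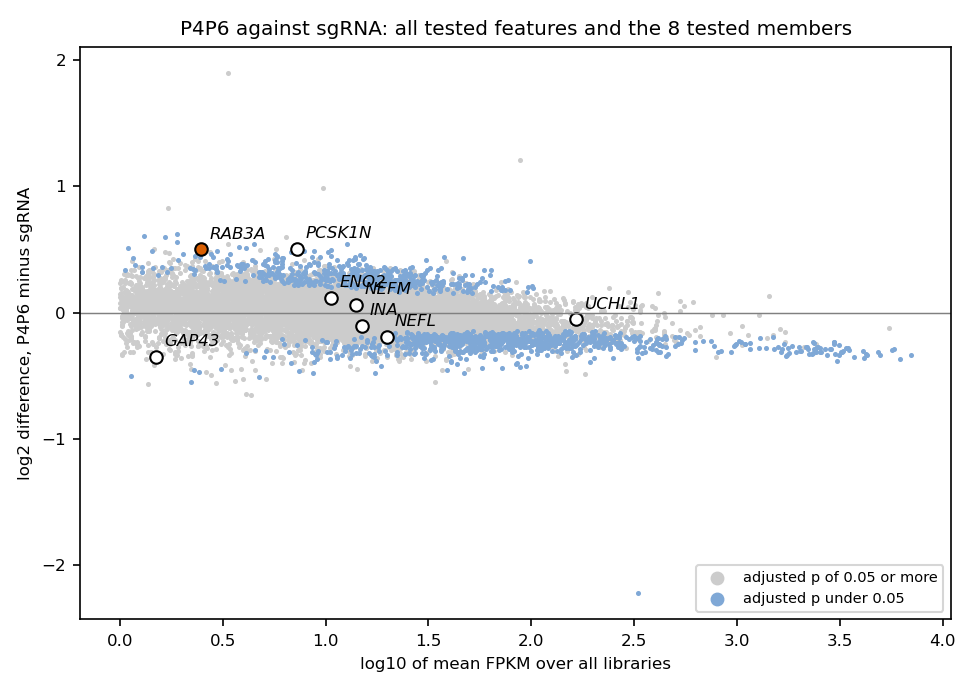
Log2 difference of P4P6 minus sgRNA (vertical axis) against log10 of the mean FPKM (horizontal axis) for all 11574 tested features, blue where the adjusted p was under 0.05, with the 8 tested genes as labelled circles. RAB3A, filled, lies at 0.50 and PCSK1N at 0.51, and the lowest point is the Gaussia reporter.

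In the other comparisons no member passed, and hardly any feature did. The Gaussia reporter, which the guides target, was itself among the tested features. INT against CasVP called 2 features (0.0173%), P4P6 against CasVP 1 (0.00864%), TOP1 against CasVP 1 (0.00864%), sgRNA against CasVP 2 (0.0173%) and all guides against CasVP 2 (0.0173%). INT against sgRNA called 1 feature (0.00864%), as did TOP1 against sgRNA (0.00864%). At an unadjusted p under 0.05, by limma, 3 of the 8 genes stood out in INT against CasVP (NEFL, NEFM and INA), 4 in P4P6 against CasVP (INA, GAP43, PCSK1N and RAB3A), 2 in TOP1 against CasVP (NEFL and NEFM), 1 in sgRNA against CasVP (NEFL), 2 in all guides against CasVP (NEFL and INA), 2 in INT against sgRNA (NEFM and RAB3A) and 0 in TOP1 against sgRNA. Among all 11574 features these counts were 1026, 2568, 1067, 697, 860, 1015 and 195 in the same order. In P4P6 against sgRNA the counts were 1 of the 8 genes (RAB3A) and 3502 of all features. The median of the 8 estimates was 0.18 in INT against CasVP, 0.10 in P4P6 against CasVP, 0.01 in TOP1 against CasVP and -0.03 in sgRNA against CasVP, while the median of all features was between -0.01 and 0.00. In P4P6 against sgRNA it was 0.01, with 4 genes above 0 and 4 below, against -0.01 for all features. The moderated F test over the 5 groups called 0 of the 8 genes and 3 of all features (0.0259%), with the smallest adjusted p among the 8 genes at 0.0859 for RAB3A. At an unadjusted p under 0.05 that F test had 2772 of all features, and of the 8 genes INA and RAB3A.

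**Figure D3:**
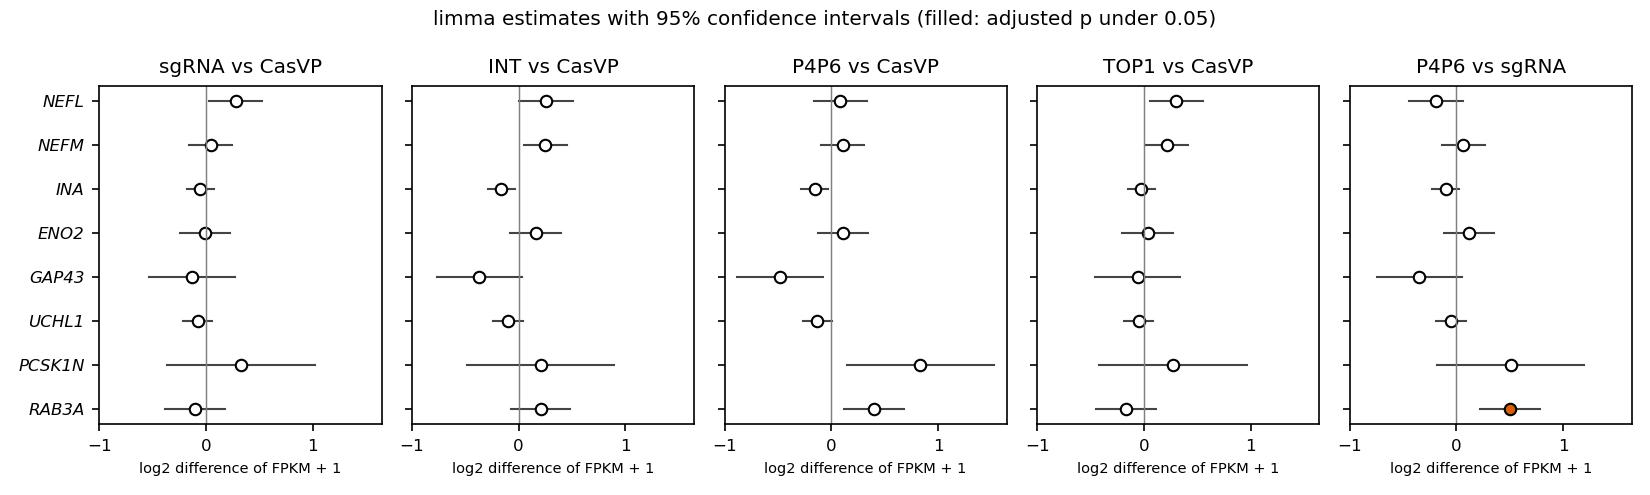
limma estimates (points, log2 difference of FPKM + 1, first group minus second) with 95% confidence intervals for the 8 tested genes in 5 of the comparisons. RAB3A in P4P6 against sgRNA is the 1 filled point, and the PCSK1N intervals, 0.691 to each side, are the widest.

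Values that did not overlap between groups were common at 2 libraries a group. Of the 8 genes 7 did not overlap in INT against CasVP, where 43.4% of all features did not, and 6 did not in P4P6 against CasVP, against 51.6%. The counts were 3 in TOP1 against CasVP (48.2%), 4 in sgRNA against CasVP (46%), 5 in INT against sgRNA (43%), 4 in P4P6 against sgRNA (56.5%) and 1 in TOP1 against sgRNA (29.2%). No test was made of these counts, which come from libraries that the comparisons share.

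P4P6 differences ran with the GC content of the transcripts. In P4P6 against sgRNA the median estimate in 5 equal bins of GC content, from low to high, was -0.07, -0.06, -0.02, 0.04 and 0.09, and the share called higher was 0.174%, 0.828%, 3.01%, 6.45% and 11.1%. The share called lower was 9.1%, 11.2%, 8.49%, 5.44% and 1.44%. Smaller trends were present for the other guides. From the lowest to the highest bin the median went from 0.03 to -0.04 in TOP1 against sgRNA, the opposite direction. In INT against sgRNA it went from -0.01 to 0.02. PCSK1N, at 74.5% GC, had the highest GC content of the tested features that have a value, and RAB3A, at 59.8%, was above 84.5% of them, so that both lay in the top bin. NEFL, INA, GAP43 and UCHL1 lay in the middle bin and NEFM and ENO2 in the next higher one. Removing a smooth trend on GC content from each library left RAB3A in P4P6 against sgRNA at 0.43, with a limma adjusted p of 0.0712, and PCSK1N in P4P6 against CasVP at 0.52, with a limma adjusted p of 0.283. Its part in the RAB3A result was otherwise not tested.

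**Figure D4:**
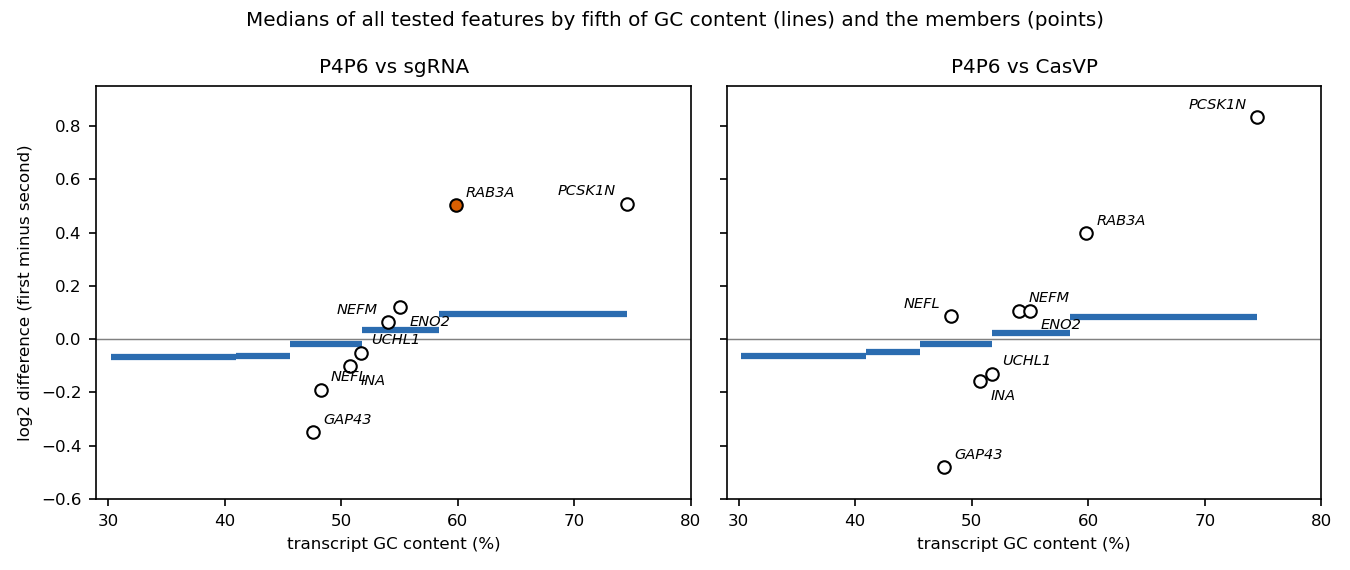
Log2 difference in P4P6 against sgRNA and against CasVP (vertical axes) by transcript GC content in percent (horizontal axes); blue lines are medians of all tested features in 5 equal bins of GC content and circles the 8 tested genes. The median goes from -0.07 in the lowest to 0.09 in the highest bin against sgRNA, and RAB3A and PCSK1N lie above it in both panels.

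The genes differed in how far they varied over the 10 libraries. The SD of log2(FPKM + 1) was 0.44 for PCSK1N, larger than that of 99.9% of features within 1.5-fold of its mean level. It was 0.26 for GAP43 (97.4%), 0.25 for RAB3A (97%), 0.17 for NEFL (97%), 0.13 for NEFM (88.1%) and 0.12 for ENO2 (80.9%). INA at 0.08 and UCHL1 at 0.07 were more even, above 46% and 29.4% of features of like level. PCSK1N, RAB3A and GAP43 also had the fewest estimated fragments of the 8 genes, with medians of 173, 92 and 71 per library.

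Part of that spread lay within groups and followed the library number. NEFL was higher in replicate 0 than in replicate 1 in all 5 groups, by 0.11 to 0.26, and so was NEFM, by 0.06 to 0.30. Of all tested features 11% were higher in replicate 0 in all 5 groups. ENO2, GAP43, UCHL1, PCSK1N and RAB3A were higher in replicate 0 in 1 of 5 groups, as were 18.1% of features. For PCSK1N that group was TOP1, where replicate 0 was 1.12 higher, while in the other groups replicate 0 was lower by 0.15 to 0.51. The labels do not say that a number marks a shared batch, so what the libraries of a number have in common is not given.

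**Figure D5:**
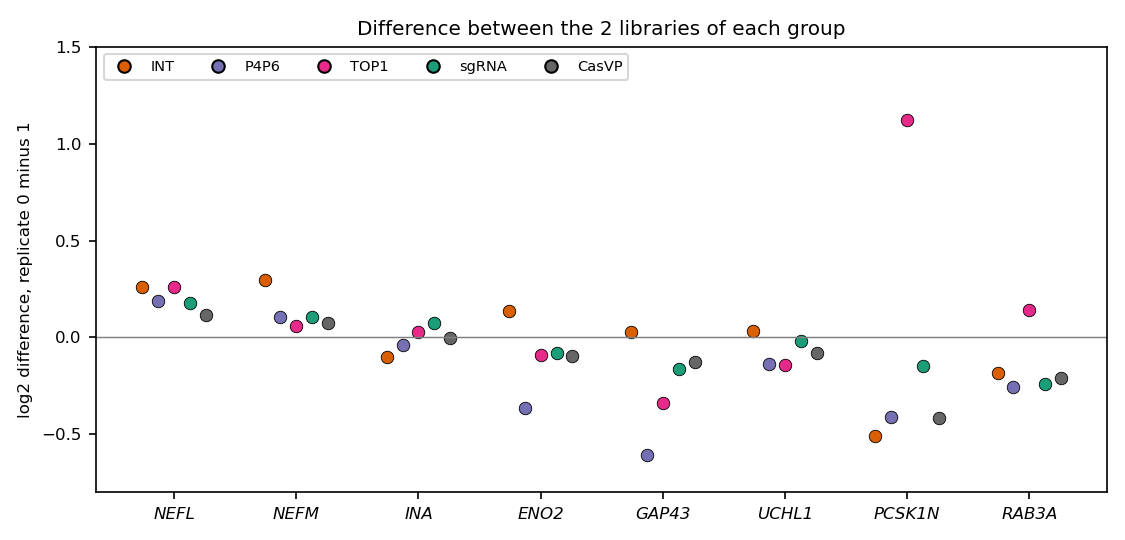
Log2 difference of replicate 0 minus replicate 1 (vertical axis) for each of the 8 tested genes, 1 point per group. All 5 points lie above 0 for NEFL and for NEFM, and the PCSK1N point of TOP1, at 1.12, lies apart from its other 4.

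The transcripts whose profiles over the 10 libraries were most like those of the 3 most variable genes were found among about 9124 features with a mean of at least 5 FPKM, by the root mean square difference of centred log2 values. For RAB3A they were ZDHHC8, at 0.06, and NOTCH3 and BAI2, both at 0.08. For PCSK1N they were CCDC85B at 0.13, HES4 at 0.16 and HOXA6 at 0.17. For GAP43 they were PSMB3 at 0.14 and TIPARP and HTATIP2, both at 0.15. These values are a description over 10 libraries.

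Other genes of the same pathways were read from the same fit. Among intermediate filaments VIM, vimentin, averaged 248 FPKM and the lamins LMNB1 and LMNB2 108 and 65.5 FPKM, while PRPH, peripherin, averaged 0.760 FPKM. Among cytoskeletal linkers DST averaged 19.1, MACF1 15.0 and MAP1B 14.7 FPKM, and MAP2, the dendritic marker, 0.317 FPKM. TUBB3, neuronal tubulin, was listed only in a feature joined with other genes and was not used here. Of the 13 filament genes 9 were tested and of the 14 linker genes 9, and in each list 0 were called in any comparison, where the P4P6 against sgRNA medians were -0.09 and 0.14.

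Of the broadly expressed relatives of ENO2, STMN2 and UCHL1, ENO1, the general enolase, averaged 1291 FPKM, STMN1 282 FPKM and UCHL3 87.5 FPKM. ENO1 and STMN1 were far above ENO2 and STMN2, whereas UCHL3 was below UCHL1. ENO1 had 1174 and 1166 FPKM in P4P6, against 1330 and 1359 FPKM in sgRNA, and fell by 0.20 (SE 0.05, limma, adjusted p = 0.0339). It was the only one of 7 tested genes of that list to pass in P4P6 against sgRNA, where the median was -0.12 against -0.01 for all features. That comparison called 11.5% of all features. After quantile normalization ENO1 was at -0.04 and no longer passed (limma, adjusted p = 0.62).

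In a list drawn up around growth-cone genes, not all of them growth-cone proteins, MARCKSL1 averaged 162 FPKM and MARCKS 48.4 FPKM. In the same list NRGN, neurogranin, a calmodulin-binding protein, averaged 15.5 FPKM and DCX, doublecortin, 0.0280 FPKM. NRGN had 19.0 and 17.0 FPKM in P4P6, against 14.7 and 14.2 FPKM in sgRNA, and rose by 0.30 (SE 0.08, limma, adjusted p = 0.046). After removal of the GC trend NRGN, whose transcript has 64.7% GC, was at 0.18 and did not pass (limma, adjusted p = 0.159). It was 1 of 9 tested, with 0 lower and a list median of 0.02. Of genes that work with RAB3A, the RAB3 GTPase-activating complex subunits RAB3GAP1 and RAB3GAP2 averaged 38.3 and 19.5 FPKM and UNC13B, a vesicle priming factor, 17.9 FPKM. In P4P6 against sgRNA 2 of 10 tested genes of the RAB3 list rose and 0 fell, with a median of 0.08 against -0.01 for all features, in a comparison that called 11.5% of all features.

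The RAB3 paralogue RAB3D had 4.06 and 5.07 FPKM in P4P6, against 3.26 and 3.41 FPKM in sgRNA, a rise of 0.35 (SE 0.09, limma, adjusted p = 0.0355). Without P4P6 replicate 1 the RAB3D estimate was 0.22 and did not pass (limma, adjusted p = 0.136). MADD, the exchange factor that loads RAB3 proteins with GTP, had 13.2 and 14.4 FPKM in P4P6, against 10.6 and 12.1 FPKM in sgRNA, a rise of 0.27 (SE 0.07, limma, adjusted p = 0.0443). The paralogue RAB3C, picked out after its values were seen, had 2.66 and 1.28 FPKM in P4P6, against 2.68 and 3.34 FPKM in sgRNA, an estimate of -0.47 that did not pass (SE 0.19, limma, adjusted p = 0.134). The remaining paralogue, RAB3B, averaged 1.86 FPKM in P4P6, against 1.63 FPKM in sgRNA, an estimate of 0.10 that did not pass (limma, adjusted p = 0.713).

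Among neuronal RNA-binding proteins and their regulators PTBP1 averaged 142 FPKM, PTBP2 20.8 FPKM and ELAVL2 9.98 FPKM, while ELAVL3 was at 0.0226 FPKM and ELAVL4 at 0 in 9 of 10 libraries. MSI1, Musashi, an RNA-binding protein of neural progenitors, had 9.59 and 8.42 FPKM in P4P6, against 6.93 and 7.09 FPKM in sgRNA, and rose by 0.32 (SE 0.07, limma, adjusted p = 0.0251). It was 1 of 5 tested, with 0 lower and a list median of 0.06, in a comparison that called 11.5% of all features. Each of the 5 list genes that passed lost its call in 5 to 13 of the alternatives: MSI1 in 5, ENO1 in 8, RAB3D in 10, NRGN in 12 and MADD in 13.

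Of vesicle release genes NSF averaged 31.5 FPKM, VAMP2 30.2 FPKM and SYP, synaptophysin, 15.6 FPKM, and SNAP25 and SYN1 were at 0.443 and 0.395 FPKM. Prohormone-processing genes were led by CPE, carboxypeptidase E, at 40.5 FPKM and PAM at 22.1 FPKM. PCSK1, the convertase that proSAAS inhibits, averaged 0.0181 FPKM, PCSK2 0.0479 FPKM and chromogranin CHGA 0.593 FPKM. The repressor REST averaged 11.9 FPKM, with HDAC1 at 174 FPKM, CTDSP1 at 34.2 FPKM and SUDS3 at 22.6 FPKM among its cofactors. Transcription factors of neural lineages were led by SOX4 at 35.6 FPKM, POU3F2 at 12.5 FPKM and PAX6 at 8.54 FPKM. Of these 4 lists 9, 2, 11 and 9 genes were tested, in the order given, and 0 were called in any comparison. Their medians in P4P6 against sgRNA were 0.06 for release genes, 0.00 for prohormone genes, 0.10 for REST and its cofactors and 0.01 for the transcription factors.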

How the data were processed

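RNA was measured in 10 libraries of 5 groups, with groups taken from the sample labels. Per the submitters' processing notes, reads were handled with TopHat2 2.0.13 and Cuffdiff 2.2.1 on hg19, and the authors deposited 1 table of FPKM values per gene and library, with no counts. The deposited table has 20246 rows, of which 945 name no gene and were left out. All values were taken as deposited and set to log2(FPKM + 1); the pseudocount of 1 shrinks differences of low genes. Features averaging at least 1 FPKM were kept (11574), and limma 3.58.1 (R 4.3.3) was fitted with an intensity trend to all 10 libraries with 1 mean per group and 5 residual degrees of freedom. Tests were two-sided, with Benjamini-Hochberg adjustment over all tested features and a threshold of 0.05. Exact permutation tests compared the 8 guide libraries with the 2 CasVP libraries for each member, with single libraries rather than whole groups as the exchanged units.

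The members and the gene lists were chosen with earlier results of these data known. A member's estimate, SE and adjusted p are printed where the estimate is at least 0.25 in size or the adjusted p under 0.05, with INA printed besides because its groups do not overlap. From each list the up to 3 tested genes of highest mean FPKM and any gene called are named, together with low neuronal genes picked after their values were seen. Some genes of the lists are not reported here. GC content comes from the longest GENCODE transcript of each gene, which 99.2% of tested features had; promoters come from RefSeq.

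Depth was estimated from the steps of low FPKM values, of which 78.5% of 10622 were whole multiples of 1 fragment within 0.05. The lowest value of each feature set its step and was whole by construction, so that share is overstated. It is too low for a count test. The absolute scale is rough, with an interquartile range of 24200000 to 29900000 fragments for CasVP replicate 0. The fit was tested on simulated data with known changes. In P4P6 against CasVP it called 20% of changes of 0.25 and 86% of changes of 0.5. In sgRNA against CasVP it called 16% and 82%. The simulated noise was independent between libraries, without the GC trend or the shared deviations of the real data. It therefore does not bear on the P4P6 calls. The alternatives changed the pseudocount (0.1), dropped the filter, or used a mean of at least 5 FPKM, median-of-ratios and quantile normalization, no trend, a replicate block and each library left out in turn; removal of the GC trend was added after seeing the data.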

Additional observations from a re-analysis of the deposited data

How the results depend on the processing

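No member reached the threshold in any comparison with CasVP under any alternative. In P4P6 against sgRNA the members called, 1 in all, were 0 with no filter, 0 at a mean of at least 5 FPKM (RAB3A was then not tested), 0 after quantile normalization and 0 after removal of the GC trend; leaving out single libraries gave 0 to 2, the 2 being RAB3A and ENO2 without P4P6 replicate 0. Features called there were 641 with no filter, 389 after quantile normalization, 668 with no trend and 731 after GC removal, and 1 (without sgRNA replicate 0) to 2045 (without P4P6 replicate 0) with a library left out; without either CasVP library there were 3, and without P4P6 replicate 1 there were 2. P4P6 against CasVP had 7 after quantile normalization and 1 to 765 (without P4P6 replicate 0) with a library left out. The F test had 5 with no filter, 5 at a mean of at least 5, 25 after quantile normalization, 1 with no trend and 9 after GC removal, and 1 to 526 (without P4P6 replicate 0). All guides against CasVP had 1 with no filter and 1 with no trend (1 to 3), sgRNA against CasVP likewise 1 and 1 (1 to 2), TOP1 against CasVP 3 with no filter (1 to 2), TOP1 against sgRNA 3 with no filter (1 to 2), INT against CasVP 1 to 2 and INT against sgRNA 1 to 2. The cause was not tested.

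With a library left out, 3 differences changed sign: NEFH between guides and CasVP ran from -0.0917 to 0.0406 (without CasVP replicate 1), RAB3A from -0.0236 (without CasVP replicate 0) to 0.187, and PCSK1N in TOP1 against CasVP from -0.2875 (without TOP1 replicate 0) to 0.833. The NEFL permutation difference ran from 0.174 to 0.289. Without P4P6 replicate 1 it was 0.265, with an exact permutation p of 0.0278, the smallest that 36 splits allow. The UCHL1 difference ran from -0.129 to -0.0485. Without TOP1 replicate 1 it was -0.105, with the same exact p. In each case the library left out was the only guide library not beyond both CasVP libraries for that gene. Leaving it out made the separation complete, so these p-values add no support.

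The library numbers of the table were not matched to the labels' replicate numbers. Same-numbered libraries deviated together with correlations of -0.0364 (INT and TOP1) to 0.4152 (sgRNA and P4P6) between groups, and 8 of the 10 were above 0.1. As not every one was, and no label marks a shared batch, the libraries were not treated as paired; only INT and TOP1 gave a negative value. With the replicate block, members called were 2 in P4P6 against sgRNA (NEFL and RAB3A) and 2 by the F test (NEFL and RAB3A); features called were 2326 in P4P6 against sgRNA, 600 in P4P6 against CasVP and 1288 by the F test.

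With 2 libraries a group, the 95% interval of a PCSK1N difference between groups reached 0.691 to each side. NEFH and STMN2 rest on too few fragments for a statement.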
